A study of Mus musculus with 39 samples.

Results

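The genes described here encode the adrenomedullin and calcitonin gene-related peptide (CGRP) ligands, Adm, Calca and Calcb, their shared receptor, Calcrl, and the 3 receptor activity-modifying proteins (RAMPs), Ramp1, Ramp2 and Ramp3. They are 7 of the 39676 genes in the deposited count table and were taken by gene symbol. The family was chosen by its function, but with results of these tumours known, among them the rise of Calcb in tretinoin-treated tumours. Values of tretinoin against PBS, and of the interaction that contains it, are therefore given for these genes as a description, with no p and no test. Whole tumours were sequenced from 39 BALB/c mice, female and male and aged 8 to 10 weeks in the study's methods, bearing subcutaneous AB1-HA tumours in a bilateral model in which 1 tumour was resected on day 9. AB1-HA cells are a murine mesothelioma line made to express influenza haemagglutinin. There were 10 tumours of mice given PBS, 9 of mice given tretinoin, 10 of mice given immune checkpoint therapy (ICT, antibodies to CTLA-4 and PD-L1) and 10 of mice given tretinoin+ICT. Tretinoin, the vitamin A derivative all-trans retinoic acid, was given intraperitoneally from day 4 as 5 daily doses of 5 mg/kg by the labels. In places the paper gives another dose or number of doses. ICT was 100 µg of each antibody from day 7. PBS with the solvent of tretinoin served as the tretinoin control in the methods, and no untreated tumours enter the comparisons. In the tretinoin+ICT group the course of the tumour left in place divided the mice into 6 responders and 4 non-responders. All groups share the one cell line and the mouse strain, so the values describe this model.

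Adrenomedullin and CGRP act on the same G protein-coupled receptor, Calcrl, which reaches the cell surface only with a RAMP. With Ramp1 it forms the CGRP receptor, and with Ramp2 or Ramp3 it forms the adrenomedullin receptors. Both couple to Gs and raise cAMP. Adrenomedullin dilates vessels, is needed for blood and lymphatic vessels to form, and is a well-known target of hypoxia. CGRP is best known as a vasodilator peptide of sensory nerves, in an alpha form made from Calca and a beta form made from Calcb. Calca transcripts are also spliced to make calcitonin, which gene counts do not separate from CGRP.

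The sequences that encode the mature peptides are shown because they are near-identical. The rise of Calcb described below depends on reads of Calca and Calcb being told apart. The sequences were read from GENCODE M21 transcripts, 5′ to 3′, and the bases at which they differ are in capitals.
Calca: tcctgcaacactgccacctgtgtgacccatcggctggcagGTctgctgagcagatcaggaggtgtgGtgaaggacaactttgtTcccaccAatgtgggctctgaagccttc
Calcb: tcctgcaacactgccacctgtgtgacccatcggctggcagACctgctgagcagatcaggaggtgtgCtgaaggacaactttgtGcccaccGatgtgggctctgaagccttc
The stretches of 111 bases were identical at 106 positions (95.5%), and the 5 differing bases change 3 of the 37 encoded residues. The longest identical run between their spliced transcripts was 61 bases. Of the windows of 100 bases, the read length, 0 of 1676 in Calca and 0 of 1260 in Calcb were shared. An error-free read of full length therefore differs between them by at least 1 base.

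On GRCm38, by GENCODE M21, the 3 ligand genes lie on chromosome 7: Adm at chr7:110627661-110629820 on the plus strand, Calca at chr7:114631478-114636357 on the minus strand and Calcb at chr7:114718643-114723365 on the plus strand. Calcrl lies at chr2:84330626-84425411 on the minus strand, Ramp1 at chr1:91179822-91225196, Ramp2 at chr11:101246028-101259546 and Ramp3 at chr11:6658521-6677475, all 3 RAMP genes on the plus strand. Ramp2 shares 1103 exon bases, 33.4% of its exon length, with Vps25 on the same strand, and Ramp3 shares 101 bases (7.32%) with the pseudogene Gm11978 on the opposite strand. How the authors counted reads on shared bases, and whether they used strand, is not given in the sources used here, so the Ramp2 level in particular is uncertain.

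Library depth was 14033046 to 37951183 gene counts (median 18548168). Cyp26b1, which encodes a retinoic acid-degrading enzyme induced by retinoids, was used to check the tretinoin labels, and ranged from 5.49 to 11.7 CPM (counts scaled to a common library size) in PBS, 242 to 386 in tretinoin, 6.47 to 32.4 in ICT and 53.2 to 170 in tretinoin+ICT tumours. Every tumour labelled with tretinoin was above every tumour labelled without it. Of 7 mesothelial markers 4 were found in the table, and their summed level was 0.381 to 6.42 CPM, with Upk3b under 0.1 CPM in every tumour. Tumours also held host tissue: the 4 skeletal muscle markers summed to between 283 and 3299 CPM. In bulk RNA, fewer cells of a type and less RNA per cell cannot be told apart.

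Expressed per length, in CPM per kilobase of exon, the most abundant member in PBS tumours was Calcrl, with a median of 4.92, followed by Ramp2 at 4.41, Adm at 3.89, Ramp3 at 2.94, Ramp1 at 0.963, Calcb at 0.699 and Calca at 0.0288. The ranges of neighbours in this order overlapped, except that Ramp1 lay below Ramp3 and Calca below Calcb in every tumour. The place of Ramp2, here and in the other groups, is uncertain, since its length includes the bases shared with Vps25. In tretinoin tumours the order of the median levels per length began with Adm at 9.24 and Calcb at 5.58, ahead of Ramp2 at 4.52 and Calcrl at 4.36. Adm also led in ICT tumours at 7.77 and in tretinoin+ICT tumours at 10.8 CPM per kilobase. The CGRP ligand Calcb moved from below Ramp1 in PBS and ICT tumours to above it in both tretinoin-treated groups, by median.

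Adm, which encodes adrenomedullin, was higher in all 3 treated groups than in PBS tumours. Its level ranged from 5.43 to 7.68 CPM in PBS (median 6.30), from 12.98 to 18.1 in tretinoin (median 14.96), from 9.76 to 22.3 in ICT (median 12.6) and from 10.9 to 25.7 in tretinoin+ICT (median 17.5). Every treated tumour was above every PBS tumour, and the 3 treated groups overlapped one another. ICT tumours spread furthest around their mean, 14.7 ± 4.63 (SD) against 6.42 ± 0.712 in PBS. The 4 highest ICT tumours, at 17.7, 17.8, 21.2 and 22.3 CPM, stood apart from the other 6, which reached 12.98.

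Calcb, which encodes beta-CGRP, was high only where tretinoin was given. Its level ranged from 0.507 to 1.52 CPM in PBS (median 0.884), from 0.264 to 2.74 in ICT (median 1.17), from 1.85 to 9.36 in tretinoin+ICT (median 4.44) and from 3.46 to 12.6 in tretinoin tumours (median 7.06). PBS and ICT tumours overlapped, as did both tretinoin-treated groups, and each tretinoin tumour was above each PBS and ICT tumour. In raw reads the PBS tumours held 10 to 31 Calcb counts and the tretinoin tumours 65 to 262. Calca, the alpha-CGRP and calcitonin gene, stayed at 0 to 5 counts in every tumour, with 10 counts over the 10 PBS tumours, 12 over the 9 tretinoin, 15 over the 10 ICT and 19 over the 10 tretinoin+ICT tumours. It passed no low-count filter and was not tested, so 6 of the 7 genes were tested in each comparison.

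**Figure D1:**
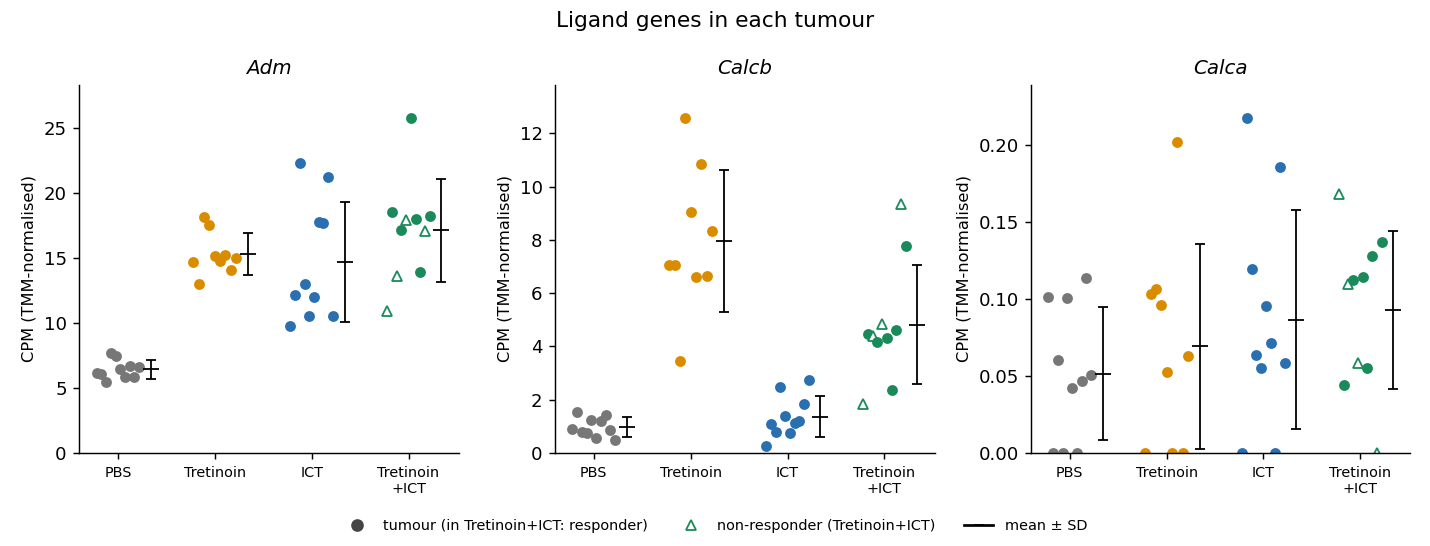
Level of the 3 ligand genes in each tumour by treatment group, in TMM-normalised CPM on a linear axis from 0, with a separate scale for each gene; circles are tumours, open triangles the 4 non-responders, and black bars the mean ± SD. Every treated tumour lies above the highest PBS tumour (7.68) for Adm, Calcb is high in both tretinoin-treated groups, and Calca stays at or below 0.217.

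The comparison of tretinoin with PBS asked what tretinoin alone did to the tumour. Adm was higher by 1.26 ± 0.07 (SE) on the log2 scale and Calcb by 3.02 ± 0.22, and 8 of 14340 genes tested had a larger rise than Calcb. Over the whole table a gene was called at an adjusted p below 0.05 and a log2 fold change of at least 1 in size, which held for 1.62% of all genes in this comparison and for 2 of the 6 tested members. Without the fold minimum it held for 20.4% of all genes and 4 of the 6. Nothing is read from these counts of members, since results of this comparison were known when the family was chosen. Calcrl, the shared receptor, was lower by a small amount, with a log2 fold change of -0.21 ± 0.05, and 7 of 9 tretinoin tumours lay below every PBS tumour. Ramp1, the CGRP receptor partner, was higher by 0.60 ± 0.16, and 5 of 9 tretinoin tumours lay above every PBS tumour. Ramp2 and Ramp3, the partners of the adrenomedullin receptors, differed by 0.05 ± 0.11 and -0.07 ± 0.21. Between pairs of tumour name series, the first digit of the tumour's name, the log2 fold change of Ramp1 ranged from 0.18 to 0.90. That of Ramp3 was 0.27 and 0.25 in the pairs with tretinoin series 3 and -0.63 and -0.66 in those with series 7.

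Tretinoin+ICT against ICT repeats the addition of tretinoin in tumours that the first comparison did not use. The family was chosen with results of these tumours known, so this is not an independent check of Calcb. Calcb rose by 1.82 ± 0.32 on the log2 scale (3.52-fold, edgeR adjusted p = 0.00223), and 8 of 10 tretinoin+ICT tumours lay above every ICT tumour. It was the only one of the 6 tested members to be called, where 0.394% of all genes were called and 1.99% passed without the fold minimum. Adm, in contrast, differed by 0.22 ± 0.17 (95% interval -0.10 to 0.55, adjusted p = 0.462), and 1 of 10 tretinoin+ICT tumours was above every ICT tumour. Calcrl differed by -0.06 ± 0.08, Ramp1 by 0.11 ± 0.22, Ramp2 by 0.09 ± 0.10 and Ramp3 by 0.12 ± 0.24, with adjusted p-values of 0.671 to 0.803. Their 95% intervals reached no further than -0.34 and 0.59. The Calcb call was lost in each of the 4 pairs of name series, which hold fewer tumours, at log2 fold changes of 1.36 to 2.24. Of all genes 6 to 11 were called in these pairs, against 56 in the whole groups. No series held more than 1 treatment, so series and treatment cannot be told apart.

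Markers of nerve tissue, a known source of CGRP, were read beside Calcb. Of 9 markers of sensory neurons and Schwann cells 7 were found and 3 passed the low-count filter. Of these 3, 0 changed with tretinoin, where 20.4% of all genes passed, or in tretinoin+ICT against ICT, where 1.99% passed. The 7 summed to 23.4 to 37.4 CPM in PBS, 20.8 to 45 in tretinoin, 20.2 to 36.4 in ICT and 22.5 to 41.5 in tretinoin+ICT tumours, and the groups overlapped. The 3 neuroendocrine markers found summed to 0.906 to 2.72 CPM over the 4 groups.

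ICT against PBS asked what the antibodies alone did. Adm rose by 1.19 ± 0.15 on the log2 scale (2.29-fold, adjusted p = 4.11e-05), with 10 of 10 ICT tumours above every PBS tumour. It was the only one of the 6 tested members to be called, where 2.35% of all genes were called, and the only one of them to pass without the fold minimum, where 21.2% of all genes passed. Calcb differed by 0.48 ± 0.30 (95% interval -0.107 to 1.075, adjusted p = 0.252). Ramp3 differed by 0.52 ± 0.22 (adjusted p = 0.0873), with 8 of the 10 ICT values over the median of PBS. Calcrl, Ramp1 and Ramp2 differed by -0.02 ± 0.07, 0.25 ± 0.21 and -0.15 ± 0.11. The Adm call was lost in both pairs of name series that used ICT series 6, at log2 fold changes of 1.05 and 1.11 with adjusted p-values of 0.183 and 0.1.

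Genes of the hypoxia response were read beside Adm. All 11 hypoxia genes tested were higher in ICT than in PBS tumours, with a median log2 fold change of 0.80 against -0.02 over all genes, and 3 of 11 were higher with tretinoin, with a median of 0.30 against 0.01. In tretinoin+ICT against tretinoin 9 of 11 were higher, with a median of 0.72, while Adm differed by 0.17 ± 0.12. In tretinoin+ICT against ICT 0 of 11 passed. Their summed level was 1535 to 1929 CPM in PBS, 1455 to 2602 in tretinoin, 1873 to 3480 in ICT and 2058 to 4163 in tretinoin+ICT tumours. Of the macrophage and monocyte markers 9 of 9 were higher with ICT, 4 of 9 with tretinoin, 6 of 9 in tretinoin+ICT against tretinoin and 0 of 9 against ICT. Their median log2 fold changes were 0.58, 0.37, 0.47 and 0.22 in the same order. They summed to 2021 to 3355 CPM in PBS, 2295 to 4604 in tretinoin, 2113 to 5089 in ICT and 2869 to 4872 in tretinoin+ICT tumours. The 4 neutrophil markers found were all higher with ICT and in tretinoin+ICT against tretinoin. With tretinoin, and in tretinoin+ICT against ICT, 0 of 4 passed. Their median log2 fold changes were 1.19 with ICT, -0.17 with tretinoin, 1.61 in tretinoin+ICT against tretinoin and 0.16 against ICT. Over all genes 21.2% passed with ICT, 20.4% with tretinoin, 21.4% in tretinoin+ICT against tretinoin and 1.99% against ICT. The part of hypoxia and of these cells in the Adm level was not tested.

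Tretinoin+ICT against tretinoin asked what ICT added. By edgeR 0 of the 6 tested members were called, where 2.08% of all genes were called. DESeq2 also called 0 of the members, where it called 320 of all 14393 genes. In edgeR 2 of 6 had an unadjusted p below 0.05, as had 5438 of all 14393 genes. Without the fold minimum 2 of 6 passed against 21.4% of all genes, a lower Calcb and a higher Ramp3. Calcb fell by 0.71 ± 0.25 on the log2 scale (adjusted p = 0.0483), and 2 of 10 tretinoin+ICT tumours lay below every tretinoin tumour. Ramp3 rose by 0.71 ± 0.24 (adjusted p = 0.0432), and 10 of 10 tretinoin+ICT tumours lay above the tretinoin median and 5 above every tretinoin tumour. Both were close to the threshold: leaving out 1 tumour at a time, Calcb passed in 3 of 19 fits (adjusted p from 0.0149 to 0.0919) and Ramp3 in 8 of 19 (0.0243 to 0.0856). Calcb passed only without tretinoin replicate 3 or tretinoin+ICT replicate 9 or 10. Over the 4 pairs of name series Calcb ranged from -1.04 to -0.45 and Ramp3 from 0.35 to 1.32. Adm differed by 0.17 ± 0.12 (95% interval -0.06 to 0.39, adjusted p = 0.29), and Calcrl, Ramp1 and Ramp2 by 0.15 ± 0.08, -0.23 ± 0.18 and -0.11 ± 0.10. Comparisons that share a group of tumours are not independent of each other.

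**Figure D2:**
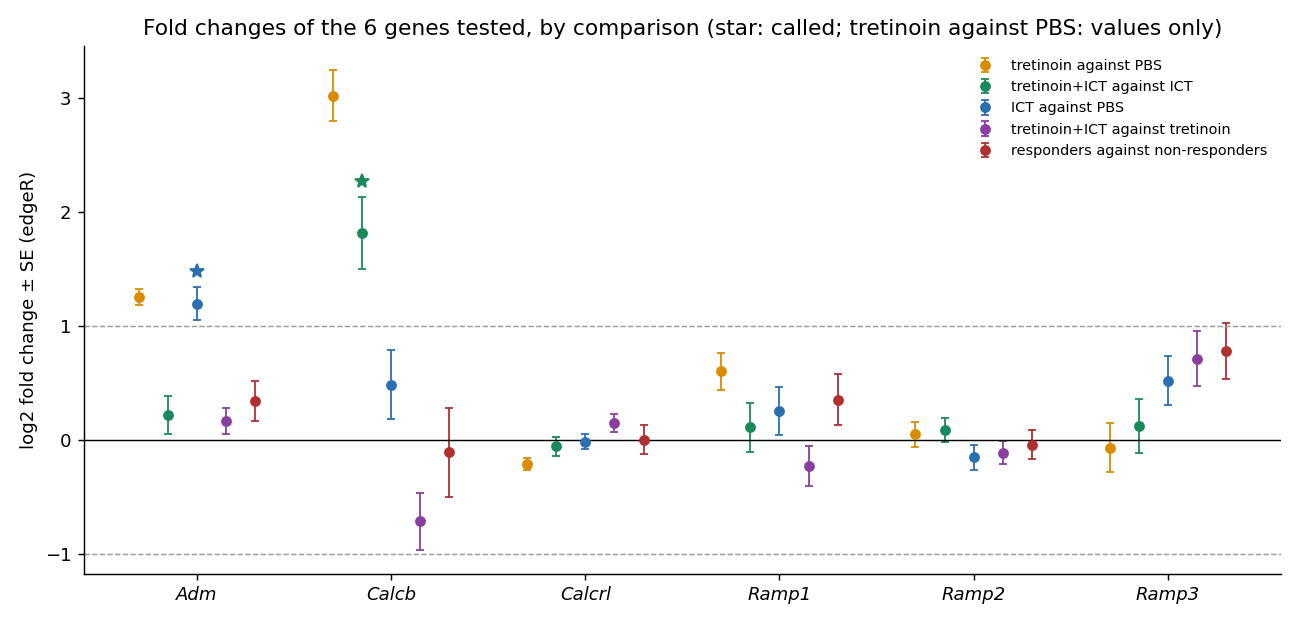
Log2 fold change with its SE (bars) of the 6 tested genes in the 5 comparisons, from edgeR; dashed lines mark a log2 fold change of 1 in either direction and stars the genes called. Tretinoin against PBS is shown as values only, with no stars. Calcb is called in tretinoin+ICT against ICT (1.82) and Adm in ICT against PBS (1.19), while Calcrl and the RAMP genes lie within 1 of 0.

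The difference between the tretinoin effects with and without ICT was fitted as an interaction over all 39 tumours. It contains the contrast of tretinoin with PBS, so the members' values are a description. For Adm the tretinoin effect was 1.26 without ICT and 0.22 with it, and the interaction was -1.04 ± 0.19 on the log2 scale (-1.11 to -0.94 over 39 fits that left out 1 tumour each). Each treatment alone more than doubled the mean Adm level over the PBS mean of 6.42 CPM, and together they gave 17.1 CPM against 15.3 with tretinoin and 14.7 with ICT. For Calcb the interaction was -1.21 ± 0.40, for Ramp1 -0.49 ± 0.28, and for Calcrl, Ramp2 and Ramp3 it lay between 0.03 and 0.18. An adjusted p below 0.05 was found for 0.307% of all genes and 1 of the 6 tested members, Adm, from which nothing is read. The retinoid target Cyp26b1 also had a lower level in tretinoin+ICT than in tretinoin tumours, at a log2 fold change of -1.27 ± 0.15, and an interaction of -2.36 ± 0.29. Its part in the values of Adm was not tested.

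Neither Calcrl nor a RAMP gene was called in any comparison by edgeR in the fits of whole groups. Calcrl ranged from 21.5 to 25.5 CPM in PBS (median 24.02), 17.3 to 22.4 in tretinoin (median 21.3), 19.1 to 28.7 in ICT (median 21.9) and 19.2 to 29.2 in tretinoin+ICT tumours (median 21.6). Ramp1 had medians of 2.91, 4.10, 3.18 and 3.94 CPM in the same order, and Ramp2 of 14.6, 14.9, 12.1 and 14.3. The ranges of these 2 genes overlapped between all 4 groups. Ramp3 had medians of 4.06 CPM in PBS, 3.48 in tretinoin, 5.34 in ICT and 6.44 in tretinoin+ICT tumours, and its highest tumours were in the ICT groups, at 11.1 and 11.9. Calcrl and Ramp2 are strongly expressed in endothelium. Of 13 blood endothelial markers tested 7 were higher with tretinoin, and 2 were higher and 4 lower with ICT. In tretinoin+ICT 2 were higher against ICT, and 2 were higher and 3 lower against tretinoin. Over all genes 20.4%, 21.2%, 1.99% and 21.4% passed in the same order. The median log2 fold change of the markers was 0.275, -0.121, 0.271 and -0.132, where that of all genes lay between -0.016 and 0.008. These markers summed to 440 to 526 CPM in PBS, 517 to 629 in tretinoin, 447 to 580 in ICT and 550 to 718 in tretinoin+ICT tumours. Their part in the receptor levels was not tested.

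**Figure D3:**
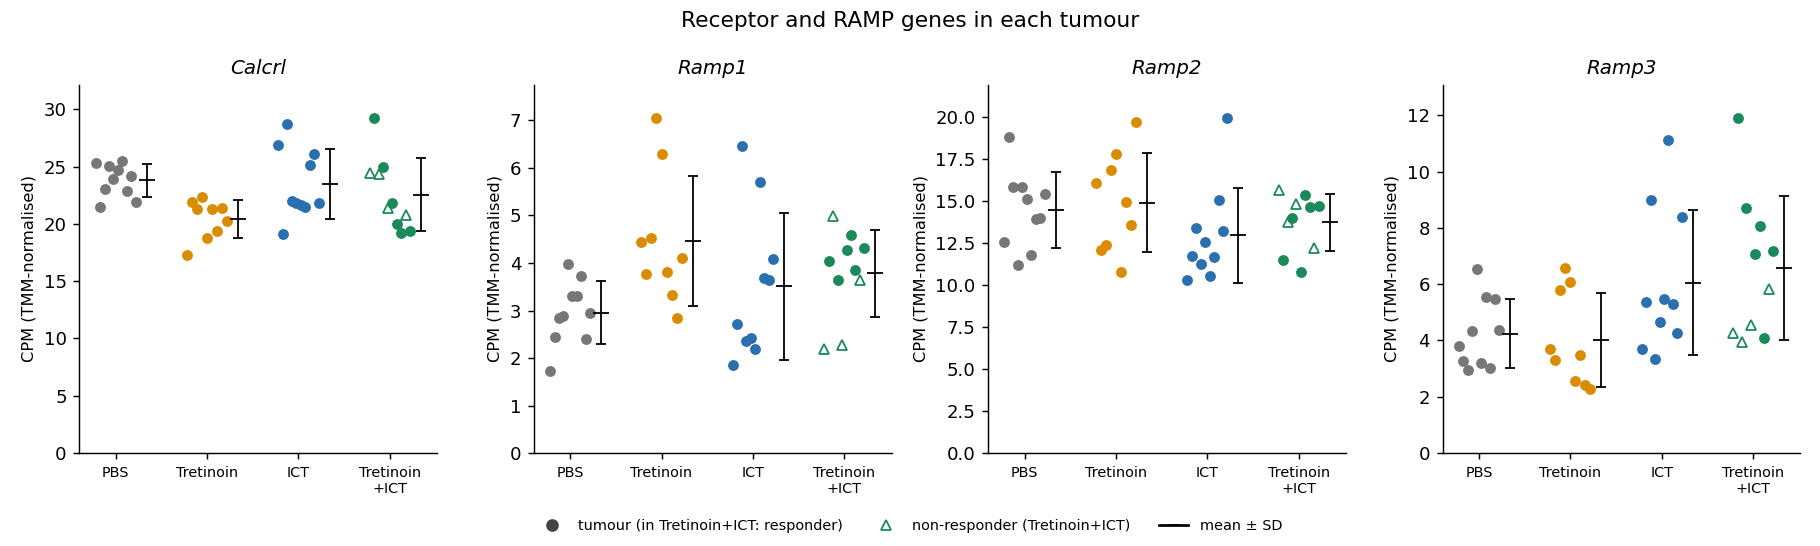
Level of Calcrl and the 3 RAMP genes in each tumour by treatment group, in TMM-normalised CPM on linear axes from 0 with a separate scale for each gene; circles are tumours, open triangles the 4 non-responders, and black bars the mean ± SD. The groups overlap for all 4 genes, with most tretinoin tumours low for Calcrl and the highest Ramp3 levels (11.1 and 11.9) in the ICT and tretinoin+ICT groups.

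As the RAMP decides which ligand Calcrl binds, the 3 RAMP transcripts were also compared per exon length as shares of their sum. Ramp2 had a median share of 53.2% in PBS, 51.3% in tretinoin, 46.1% in ICT and 40.4% in tretinoin+ICT tumours. Ramp3 had 37.3%, 30.96%, 43.7% and 46.6% in the same order, and Ramp1 had 12.01%, 16.3%, 11.3% and 12.8%. By exon length, the shares of the adrenomedullin receptor partners crossed between the groups. Ramp2 led in PBS and Ramp3 in tretinoin+ICT tumours by median, although the tumours of each group overlapped those of every other. In CPM, with no division by length, Ramp2 stayed above Ramp3 by median in tretinoin+ICT tumours, at 14.3 against 6.44. Within tretinoin+ICT the median shares were 37.3% for Ramp2 and 50.5% for Ramp3 in the 6 responders, and 50.3% and 37.3% in the 4 non-responders, so Ramp2 still led in the non-responders. Ramp2 ranged from 25.9% to 51.2% in responders and from 40.6% to 55.5% in non-responders, and Ramp3 from 34.2% to 64.1% and from 32.95% to 46.2%. Transcript shares do not measure receptor protein. The Ramp2 length includes the bases shared with Vps25, and whether reads on them were counted is not given. Which of Ramp2 and Ramp3 leads per length is therefore uncertain, also in responders and non-responders.

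**Figure D4:**
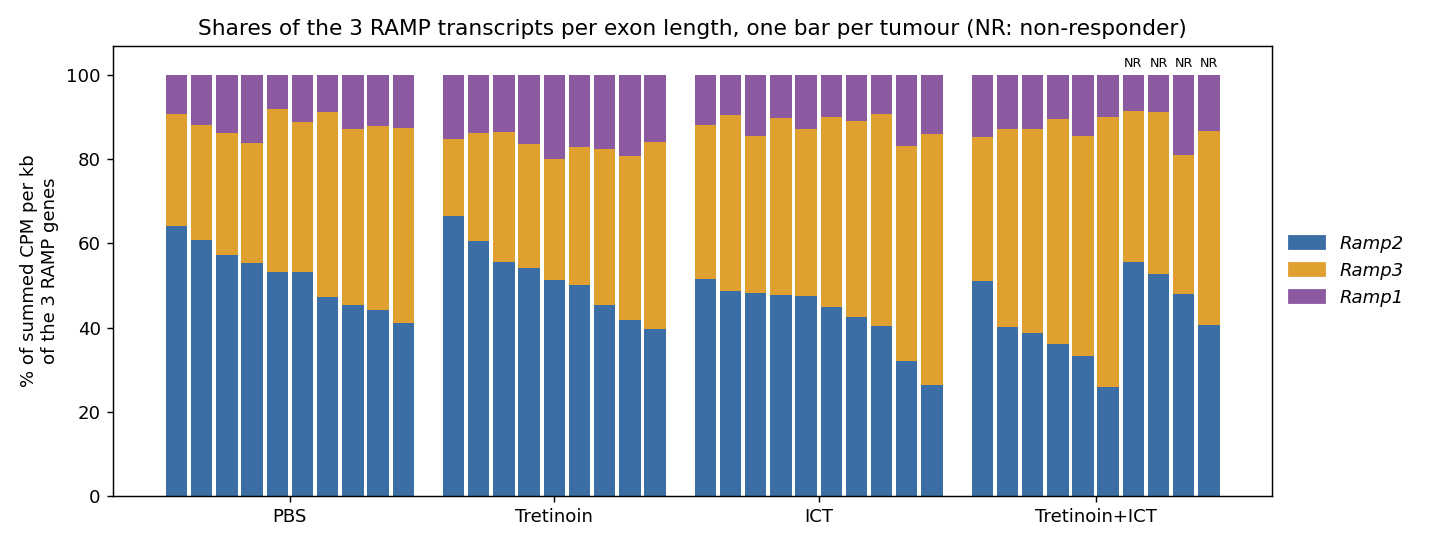
Share of each RAMP gene in the summed CPM per kilobase of exon of the 3 RAMP genes, in percent, 1 stacked bar per tumour, ordered by Ramp2 share within each group and, in tretinoin+ICT, with the 4 non-responders (NR) last. Ramp1 is the smallest share by median in every group, at 11.3% to 16.3%, and the median Ramp2 share goes from 53.2% in PBS to 40.4% in tretinoin+ICT tumours.

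Responders were compared with non-responders within the tretinoin+ICT group to ask what set the tumours apart at resection. Ramp3 was 4.10 to 11.9 CPM in the 6 responders (median 7.64) and 3.95, 4.26, 4.54 and 5.82 in the 4 non-responders. All responders but 1 lay above every non-responder. The log2 difference was 0.78 ± 0.24 (95% interval 0.30 to 1.26), with an adjusted p of 0.103. Adm was 13.9 to 25.7 CPM in responders (median 18.1) and 10.9 to 17.9 in non-responders (median 15.3), a log2 difference of 0.34 ± 0.18 (adjusted p = 0.266). Ramp1 differed by 0.35 ± 0.23 (adjusted p = 0.374), Calcb by -0.11 ± 0.39, Calcrl by 0.00 ± 0.12 and Ramp2 by -0.04 ± 0.13, with adjusted p-values of 0.876 to 0.996.

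By edgeR 0 of the 6 tested members were called between responders and non-responders, as were 0 of all 14604 genes (0%), although 1 member, Ramp3, and 3302 genes in all had an unadjusted p below 0.05. DESeq2 called 117 genes, none of them a member. In the DESeq2 fit Ramp3 had an adjusted p of 0.0264 at a log2 difference of 0.78, under the fold minimum, and 1425 of the 14604 genes also had an adjusted p below 0.05. In edgeR it reached an adjusted p of 0.0166 without tretinoin+ICT replicate 8, the responder with 4.10 CPM, a fit in which 1805 of 14540 genes had an adjusted p below 0.05, and 0.0929 to 0.275 without each of the other 9 tumours. Immune markers were read beside Ramp3. As 0 of all genes passed in the edgeR fit of all 10 tumours, a count of markers passing cannot tell whether these lists differed. The median log2 difference was 0.66 for the 5 T and NK cell markers, 0.61 for the 4 neutrophil markers and 0.32 for the 9 macrophage and monocyte markers. Over all genes it was 0.01. The 11 hypoxia genes tested had a median of 0.64, so such a difference was not particular to immune markers. The 5 T and NK cell markers summed to 56.9 to 108 CPM in responders and 51.1 to 72.7 in non-responders, and the 9 macrophage and monocyte markers to 3465 to 4872 and 2869 to 3778, with overlap in both lists. The part of these cells in the Ramp3 level was not tested.

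Across the 39 tumours the genes whose log2 CPM was most like that of Adm, of 14958 compared, were Tbxas1, thromboxane synthase (Pearson's r = 0.882), the hypoxia-induced vascular growth factor Vegfa (0.882) and Frmd4b (0.87). For Calcb they were Slc25a51 (0.913), Epn2 (0.912) and Medag (0.905). For Ramp3 they were the lymphocyte and dendritic cell chemokine receptor Ccr7 (0.905), Bcl2l14 (0.904) and the chemokine Ccl8 (0.841). For Calcrl they were Atp6v1a (0.713), Lcorl (0.698) and Ivns1abp (0.66), for Ramp1 Wnk2 (0.763), Pbxip1 (0.759) and Rasgrp2 (0.753), and for Ramp2 Tmem150a (0.769), Ptov1 (0.762) and the collagen gene Col1a1 (0.722). Of pairs of members, Adm and Calcb correlated at 0.59 over all tumours but at 0.156 after the treatment means were removed, whereas Ramp1 and Ramp3 correlated at 0.439 and 0.609. These are descriptions over tumours that share treatments and have no p.

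Other genes of the pathway were read from 3 lists. Of the family members and binding proteins 6 of 7 were found and 4 were tested: 2 were higher with tretinoin, 2 with ICT and 1 in each comparison of tretinoin+ICT with a single treatment, and 0 were lower. Over all genes 20.4% passed with tretinoin, 21.2% with ICT, 1.99% in tretinoin+ICT against ICT and 21.4% against tretinoin. The median log2 fold change was 0.30 with tretinoin, where that of all genes was 0.01, and 0.41 with ICT, where it was -0.02. Ackr3, which encodes a scavenger receptor of adrenomedullin and was singled out after its values were seen, was higher in all 4 comparisons between treatments, by 0.70 ± 0.13 with tretinoin (adjusted p = 0.000588), 0.57 ± 0.16 with ICT (adjusted p = 0.0159), 0.73 ± 0.18 for tretinoin+ICT against ICT (adjusted p = 0.0298) and 0.61 ± 0.15 against tretinoin (adjusted p = 0.0113). Its mean was 13.51 CPM in PBS, 21.9 in tretinoin, 20.1 in ICT and 33.3 in tretinoin+ICT tumours, and its interaction was 0.03 ± 0.23 (adjusted p = 0.982).

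Of 7 enzymes that process or break down peptides 5 were tested, of which 1 was higher with tretinoin, 2 with ICT, 0 in tretinoin+ICT against ICT and 3 against tretinoin, and 0 were lower in any of these. Of 24 genes of Gs and cAMP signalling 19 were found. With tretinoin 4 of 18 tested were higher and 1 lower, with ICT 5 of 17 were higher and 2 lower, in tretinoin+ICT against ICT 0 were higher and 1 of 17 lower, and against tretinoin 3 of 18 were higher and 0 lower. Their median log2 fold change lay between -0.003 and 0.011 in these 4 comparisons. The shares of all genes that passed were 20.4%, 21.2%, 1.99% and 21.4% in the same order. None of the genes of the 3 lists reached the fold minimum in any comparison of 2 groups or had an adjusted p below 0.05 in the interaction. None passed between responders and non-responders, where 0 of all genes passed.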

How the data were processed

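RNA of 39 whole tumours was sequenced by the authors as single-end reads of 100 bases on a NovaSeq instrument. The submitters' processing notes name bcl2fastq 2.20.0.422 and HISAT2 2.0.4, and the authors name the genome mm11, a build not given elsewhere. The authors deposited raw counts per gene from SummariseOverlaps, with no normalization. Strand mode and the handling of multi-mapping reads are not given in the sources used here.

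Columns were mapped to tumours by title. Gene models were taken from GENCODE M21 (GRCm38), which 36719 of 39676 gene IDs matched with their version. Counts were normalized by TMM, and CPM use those library sizes. Each comparison of 2 groups was fitted with edgeR 4.0.16 (R 4.3.3), filterByExpr and the robust quasi-likelihood test on those groups alone. The interaction used all 39 tumours. P-values were adjusted by Benjamini-Hochberg over all genes tested. A gene was called at an adjusted p below 0.05 and a log2 fold change of at least 1 in size, except the interaction, called by adjusted p alone. SE was taken as the size of the log2 fold change over the root of its F statistic, and 95% intervals are 1.96 SE. Levels in log2 CPM used a prior count of 2. For the genes of the pathway and marker lists, higher and lower mean an adjusted p below 0.05. P-values measure the spread between tumours.

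By rule the text names all 7 members, the 3 genes most alike to each of the 6 that passed the filter (largest Pearson correlation of log2 CPM) and any called gene of the 3 pathway lists, of which there were none. Ackr3 was named after its values were seen. Members and lists were chosen with earlier results of these data known. Alternatives were DESeq2 1.42.0, its size factors in edgeR, pairs of name series, a fit of all tumours together, no fold minimum, no low-count filter and a minimum of 10 counts in every tumour. For responders and non-responders they were also the name series as a block and leaving out each tumour. Leaving out each tumour elsewhere was added after the values were seen. Scripts were tested on simulated data. Some genes of the lists, such as Adm2, were not analysed here. Python 3.11.15 with matplotlib 3.10.9 drew the plots.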

Additional observations from a re-analysis of the deposited data

Results flagged for a closer look

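Calcb in tretinoin replicate 3 was 3.46 CPM, below the other 8 tretinoin tumours. In log2 CPM, the scale of the check, the gap was large for the group's range (Dixon's test). It was the one such value among 36 groups of values checked, of which chance flags about 1 in 20. Without this tumour the log2 fold change of Calcb with tretinoin was 3.12, against 3.02 with it.

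The log2 fold change of Adm with tretinoin was 1.26 without ICT and 0.22 with it, an interaction of -1.04. It was listed by a rule that takes members with an interaction at an adjusted p below 0.05, as 0.307% of all genes had. The interaction contains the contrast of tretinoin with PBS, results of which were known when the genes were chosen. Nothing is read from its passing, and the values are given as a description.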

How the results depend on the processing

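No paired analysis was possible because the labels number no replicates across groups. Counts of members called changed in 11 settings. Without the fold minimum, 4 of the 6 tested members passed with tretinoin against PBS, where 20.4% of all genes passed. Nothing is read from that count, since results of this comparison were known when the family was chosen. For tretinoin+ICT against tretinoin 2 of the 6 passed, against 21.4% of all genes. For ICT against PBS, 0 were called in name series 6 against 1, where 9 of 14195 genes were called, and in 6 against 5, where 5 of 14253 were. For tretinoin+ICT against ICT, 0 were called in each of the 4 pairs of series, and 0 with at least 10 counts in every tumour, where Calcb was not tested. Of all genes 6 to 11 were called in these pairs and 31 with at least 10 counts. For tretinoin+ICT against tretinoin, 1 was called in series 2 against 7 (Calcb, -1.04), as were 268 of all 14535 genes. In series 4 against 7, 1 was called (Ramp3, 1.27), as were 293 of all 14520 genes. The cause was not tested beyond the smaller number of tumours in a pair of series. No count of members called changed on leaving out 1 tumour.

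Each direction that reversed was that of a member not called. For Ramp3 with tretinoin, series 3 against 1 gave 0.27 and 3 against 5 gave 0.25, where 7 against 1 gave -0.63 and 7 against 5 gave -0.66, and for Ramp2, 7 against 1 gave -0.005. For Ramp2 with ICT, 8 against 5 gave 0.009. For tretinoin+ICT against ICT, series 2 against 8 gave -0.015 for Adm, 0.10 for Calcrl, -0.16 for Ramp1, -0.012 for Ramp2 and -0.044 for Ramp3, 2 against 6 gave 0.068 for Calcrl, and 4 against 8 gave -0.046 for Ramp2 and -0.085 for Ramp3. Against tretinoin, Calcrl was -0.002 in 4 against 3 and -0.024 in 4 against 7, where Ramp1 was 0.23. Calcrl in responders was -0.005 by DESeq2 and by its size factors, -0.026 with no filter and -0.001 in one fit. Leaving out 1 tumour gave -0.008 to 0.099 for Ramp2 and -0.182 to 0.021 for Ramp3 with tretinoin, -0.051 to 0.015 for Calcrl with ICT, -0.016 to 0.261 for Ramp3 in tretinoin+ICT against ICT, and -0.006 to 0.126 for the interaction of Ramp2. In responders it gave -0.085 to 0.042 for Calcrl, -0.11 to 0.014 for Ramp2 and -0.407 to 0.351 for Calcb.

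Over all genes, tretinoin+ICT against ICT called 56, but 31 with at least 10 counts, 83 by DESeq2 and 101 in one fit, and the interaction called 46, but 81 by DESeq2 and 29 with no filter. Responders against non-responders called 0, but 1 in one fit, 117 by DESeq2, 205 without tretinoin+ICT replicate 8 and 1 without replicate 3. Leaving out 1 tumour also moved tretinoin against PBS from 232 to 153 (tretinoin replicate 3), ICT against PBS from 332 to 212 and tretinoin+ICT against ICT from 56 to 123 (both ICT replicate 3), and the interaction from 46 to 29 (PBS replicate 1) or 30 (PBS replicate 5, tretinoin replicates 5 and 7, tretinoin+ICT replicate 3). Depth limits Calca, at 0 to 5 counts, and leaves Calcb at 4 to 47 counts in ICT tumours.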
